A study of Mus musculus with 3 samples.

Results

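Imprinted growth-regulating genes are expressed mainly from the copy inherited from 1 parent, and many of them set how large tissues grow before and after birth. The 10 genes described here were chosen by name, as imprinted genes with known roles in growth: Igf2, Mest, Peg3, Nnat, Dlk1 and Ndn, which are expressed from the paternal copy, and H19, Meg3, Cdkn1c and Grb10, which in most tissues are expressed from the maternal copy. Their transcripts were found in the tables of whole mouse skin by exact match of tag sequences to reference transcripts. All 10 were listed in at least 1 library, out of 14514 named genes, and 8 of the 10 carried the minimum of 15 tags over the libraries that a test required. Dlk1 and Ndn did not.

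Imprinting is set by DNA methylation laid down in the egg or the sperm, and genes of 1 imprinted domain often share control elements. At the domain of Igf2 and H19, for example, both genes use the same enhancers, and methylation of the paternal control region favours Igf2. Igf2 is a growth factor that signals through the insulin-like growth factor 1 receptor, while Cdkn1c and Grb10 restrain growth, the former as an inhibitor of cyclin-dependent kinases and the latter as an adaptor that damps insulin and growth factor receptors. Many of these genes are high in embryos, fall after birth and come back in regenerating tissues such as muscle. The present libraries do not separate the parental copies, so all values are sums over both.

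Whole skin came from C57BL/6 males at an age of 2 months, whose hair growth had been started by depilation 9 days before the injection. There were 3 groups of 1 library each: untreated skin (day 0) and skin taken 1 day and 2 days after an intraperitoneal injection of cyclophosphamide, an alkylating drug that harms dividing cells, at 150 mg/kg per the series design text (the samples' own label has km in place of kg). All skins were from depilated mice, and drug and 1 or 2 further days of hair growth cannot be told apart. How many mice each library pools was not found in the sources at hand, and no difference has a replicate check. Tags assigned to clusters numbered 2731787, 2859653 and 2636804 (days 0, 1 and 2), which is 45.3%, 47.1% and 46.5% of the tags kept. The labelled tissue matched its markers: all 10 of a list of epidermal genes, among them Krt5, Krt14 and Krt10, were listed in every library.

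Each tag is counted as a 21-base sequence that starts at a CATG site. Its match to reference transcripts gives the strand and the gene or genes, but often holds for several transcripts of a gene. The tags below carried the counts of the genes that the results turn on. The CATG cut site is in capitals, and the coordinates (GRCm38, counted from 1) are from the match to GENCODE transcripts.

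Igf2: CATGcattttctggcaaaatc

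Nnat: CATGgggggagtggagggcgt

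Mest: CATGtaagtgcggaatgaatg

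Peg3: CATGacaagtgcgtagtgtca

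Meg3: CATGgtgctttcaataaattt

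H19: CATGgccaactctgcctgacc

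Grb10, site 1: CATGtaaccgttttcagggaa

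Grb10, site 3: CATGcaaccgtgtttccacga

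The Igf2 tag lies on the minus strand at chr7:142650833-142650853, in the 3' UTR in exon 4 of 4 and 64 bases from the transcript end. It also occurs in Gm49394, an annotated gene that overlaps Igf2 on the same strand, and the tag cannot separate them. The Nnat tag lies at chr2:157562078-157562098 on the plus strand, in the 3' UTR in exon 3 of 3. Nnat sits within the span of Blcap, which is on the minus strand. The Mest tag is at chr6:30748145-30748165 on the plus strand (3' UTR, exon 12 of 12), and that of Peg3 at chr7:6704236-6704256 on the minus strand (3' UTR, exon 9 of 9). The Meg3 tag is at chr12:109571691-109571711 on the plus strand, 15 bases from the end of a noncoding transcript, and the H19 tag at chr7:142576014-142576034 on the minus strand, in noncoding exon 5 of 5. The Grb10 tags are at chr11:11930680-11930700 and chr11:11931773-11931793 on the minus strand, both in the 3' UTR in exon 17 of 17. These positions are those of the annotated transcript chosen for each tag, and of 11 annotated Meg3 transcripts 4 held the tag.

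Levels are given as tags and as CPM, tags per 1000000 with library sizes corrected by edgeR's TMM factors. Log2 ratios carry an exact 95% interval that covers counting error only. Genes count as called (higher, lower, rose, fell) where a two-sided exact conditional binomial test of the tags of 2 libraries gave an adjusted p (Benjamini-Hochberg over 13812 clusters) of 0.001 or less at a ratio of 2 or more. It sets 1 library against another and cannot speak for the conditions, and PCR duplicates were counted as separate molecules. A gene given as not called may have passed the p and missed only the 2-fold ratio. In whole skin, fewer cells of a type and less RNA per cell cannot be told apart.

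The comparison of day 2 with day 0 asks what differed in skin 2 days after the drug. Igf2 rose 4.13-fold and Nnat fell 9.92-fold. Meg3 stood at 2.10 times its day 0 level without passing the test, and Mest and Peg3 were below day 0 without passing it. Of the 8 members tested 1 rose and 1 fell, while 6.49% of all clusters were called in that comparison (3.43% higher and 3.06% lower). The median log2 ratio of the 8 was 0.38, with ratios from -3.16 to 2.02, against a median of 0.01 over all clusters tested.

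The comparison of day 1 with day 0 asks the same 1 day after the drug. Mest fell and was the 1 member called of 8, where 2.87% of all clusters were called (1.48% higher, 1.39% lower). Peg3 had a ratio of similar size that did not pass. Igf2, Nnat, Meg3, Grb10 and H19 all had intervals that included a ratio of 1. The median log2 ratio of the members was -0.02, the same as that of all clusters tested.

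Between day 1 and day 2, Igf2 rose and Nnat fell, 2 of 8 members against 2.92% of all clusters (1.82% higher, 1.1% lower). This comparison shares the day 2 library with the comparison to day 0 and is not a second measurement of the change. Of the 8 ratios 7 were positive and 1 negative, while 6804 of 13812 clusters were positive. The median of the 8 was 0.64, with ratios from -3.36 to 1.61, against a median of -0.02 over all clusters.

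**Figure D1:**
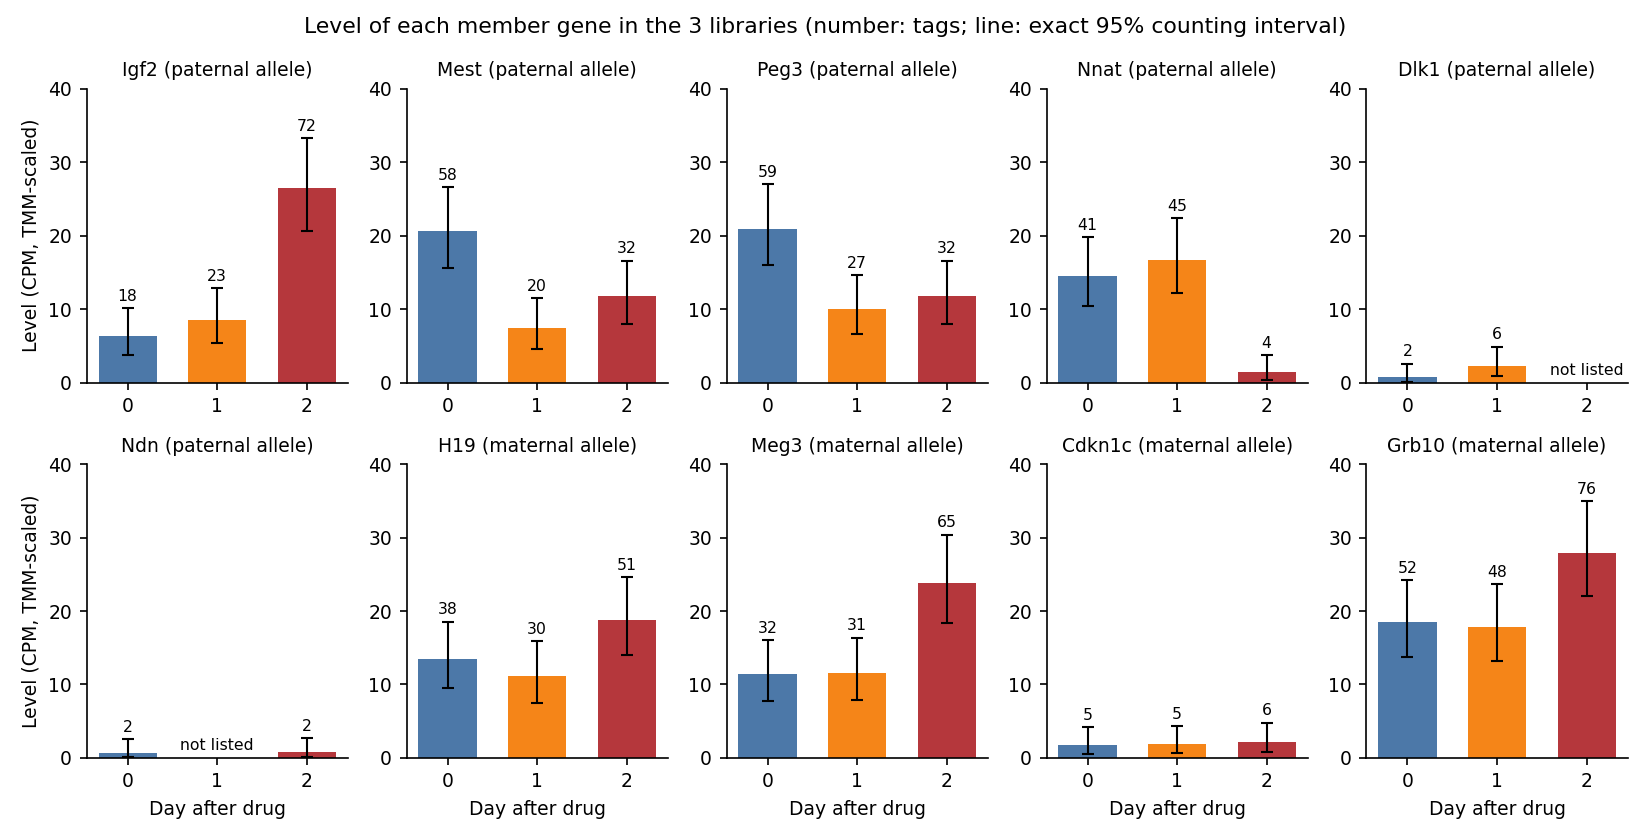
Level of each of the 10 genes (vertical axis, CPM after TMM scaling) at days 0, 1 and 2 (horizontal axis), 1 library per bar, with the number of tags above it and a line for the exact 95% counting interval. Igf2 and Meg3 are highest at day 2, Nnat is at 4 tags there, and Mest and Peg3 are highest at day 0.

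Igf2, the growth factor of the set, had 18 tags at day 0, 23 at day 1 and 72 at day 2, or 6.40, 8.55 and 26.45 CPM. The day 2 library stood apart, and its counting interval (20.69 to 33.31 CPM) did not overlap those of day 0 (3.79 to 10.11) and day 1 (5.42 to 12.83). The log2 ratio of day 2 over day 0 was 2.02 (1.29 to 2.88; exact test, adjusted p = 4.9e-08). Against day 1 it was 1.61 (0.93 to 2.37; exact test, adjusted p = 1.1e-05), and day 1 over day 0 gave 0.41 (-0.54 to 1.39). Results with an assumed coefficient of variation were judged at a looser adjusted p of 0.05, not at the 0.001 used for calls. At 0.2 the rise from day 0 passed 0.05 but not 0.001 (edgeR's exact test, adjusted p = 0.027). The rise from day 1 passed neither limit (0.183), and at 0.4 both rises failed (1.000). Of its 113 tags, 98.2% were at the 3'-most CATG site.

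H19, a noncoding RNA whose gene lies 72.6 kb from that of Igf2, had 38, 30 and 51 tags at days 0, 1 and 2 (13.51, 11.15 and 18.73 CPM). The intervals of the 3 libraries overlapped. The log2 ratio of day 2 over day 0 was 0.47 (-0.16 to 1.12) and day 2 over day 1 was 0.74 (0.07 to 1.45), neither called. No H19 tag came from the 3'-most site. Site 2 had 24, 23 and 41 tags and site 3 had 12, 7 and 10, so the sites differed in sign at day 2 over day 0, at 0.81 (0.06 to 1.61) and -0.21 (-1.59 to 1.12).

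Nnat, neuronatin, is a small membrane protein of the endoplasmic reticulum that is best known from the developing brain. It had 41 tags at day 0, 45 at day 1 and 4 at day 2, or 14.57, 16.73 and 1.47 CPM. Day 0 and day 1 were alike within counting error, while the interval at day 2 (0.40 to 3.76 CPM) lay below both others. The log2 ratio of day 2 over day 0 was -3.16 (-5.25 to -1.84; exact test, adjusted p = 2.3e-07), and that over day 1 was -3.36 (-5.45 to -2.05; exact test, adjusted p = 1.6e-08). At an assumed coefficient of variation of 0.2 both falls passed the looser limit of 0.05 (edgeR's exact test, adjusted p = 0.0031 and 0.0018). Neither fall met the 0.001 used for calls, and at 0.4 both failed at 0.05 as well (1.000). All 4 tags at day 2, and 95.6% of all 90 Nnat tags, were at the 3'-most site. Blcap, named here for its position as the gene around Nnat on the other strand, had 42, 49 and 33 tags and was not called, with a log2 ratio of -0.30 at day 2 over day 0.

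Mest, an enzyme-like protein of the alpha/beta hydrolase fold named for its level in mesoderm, had 58 tags at day 0, 20 at day 1 and 32 at day 2 (20.62, 7.44 and 11.75 CPM). The day 0 library was highest. Day 1 over day 0 was -1.45 (-2.28 to -0.72; exact test, adjusted p = 0.00046), a 2.77-fold fall. The call was lost when animals were assumed to vary with a coefficient of 0.2 (edgeR's exact test, adjusted p = 0.457). Day 2 over day 0 was -0.80 (-1.48 to -0.16), not called. At the 3'-most site alone the counts were 58, 18 and 25, and 9 further tags at sites 2 to 4 appeared at days 1 and 2 alone.

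Peg3, a zinc finger protein of cell survival and of maternal behaviour, followed the same order with 59, 27 and 32 tags (20.97, 10.04 and 11.75 CPM), all from 1 site. The day 0 interval (15.97 to 27.05 CPM) lay above that of day 1 (6.62 to 14.61). Day 1 over day 0 was -1.05 (-1.78 to -0.38; exact test, adjusted p = 0.0096), which missed the threshold. Day 2 over day 0 was -0.83 (-1.50 to -0.19).

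Meg3, a noncoding RNA of the domain that also holds Dlk1, had 32, 31 and 65 tags (11.37, 11.53 and 23.88 CPM). The day 2 interval (18.43 to 30.43 CPM) did not overlap those of the earlier libraries. At day 2 over day 0 the log2 ratio was 1.06 (0.44 to 1.73; exact test, adjusted p = 0.0033), so it passed the fold but not the p required. A second tag of Meg3, from another cluster and in exon 1, had 7, 6 and 14 copies.

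Dlk1, a membrane ligand of the Notch family that keeps precursor cells undifferentiated, was at the limit of what was listed, with 2 tags at day 0, 6 at day 1 and no listing at day 2. All came from CATG site 10, counted from the 3' end. Ndn, necdin, a protein that holds back division in neurons, had 2 tags at day 0, no listing at day 1 and 2 at day 2. Since the smallest copy number listed is 2, a gene that is not listed need not have had 0 tags, and no ratio is given for these libraries.

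Grb10 had 52, 48 and 76 tags (18.48, 17.85 and 27.92 CPM). Its log2 ratio at day 2 over day 0 was 0.59 (0.07 to 1.13) and day 1 over day 0 was -0.05 (-0.65 to 0.54), neither called. Its sites did not move together at day 1. The 3'-most site had 34, 40 and 53 tags, while site 3 had 13, 2 and 23, so that day 2 over day 1 was 0.38 (-0.23 to 1.02) at the former and 3.22 (1.49 to 6.64) at the latter. Cdkn1c, the cyclin-dependent kinase inhibitor p57, had 5, 5 and 6 tags, and its interval of -1.67 to 2.36 at day 2 over day 0 includes a 2-fold change in either direction.

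**Figure D2:**
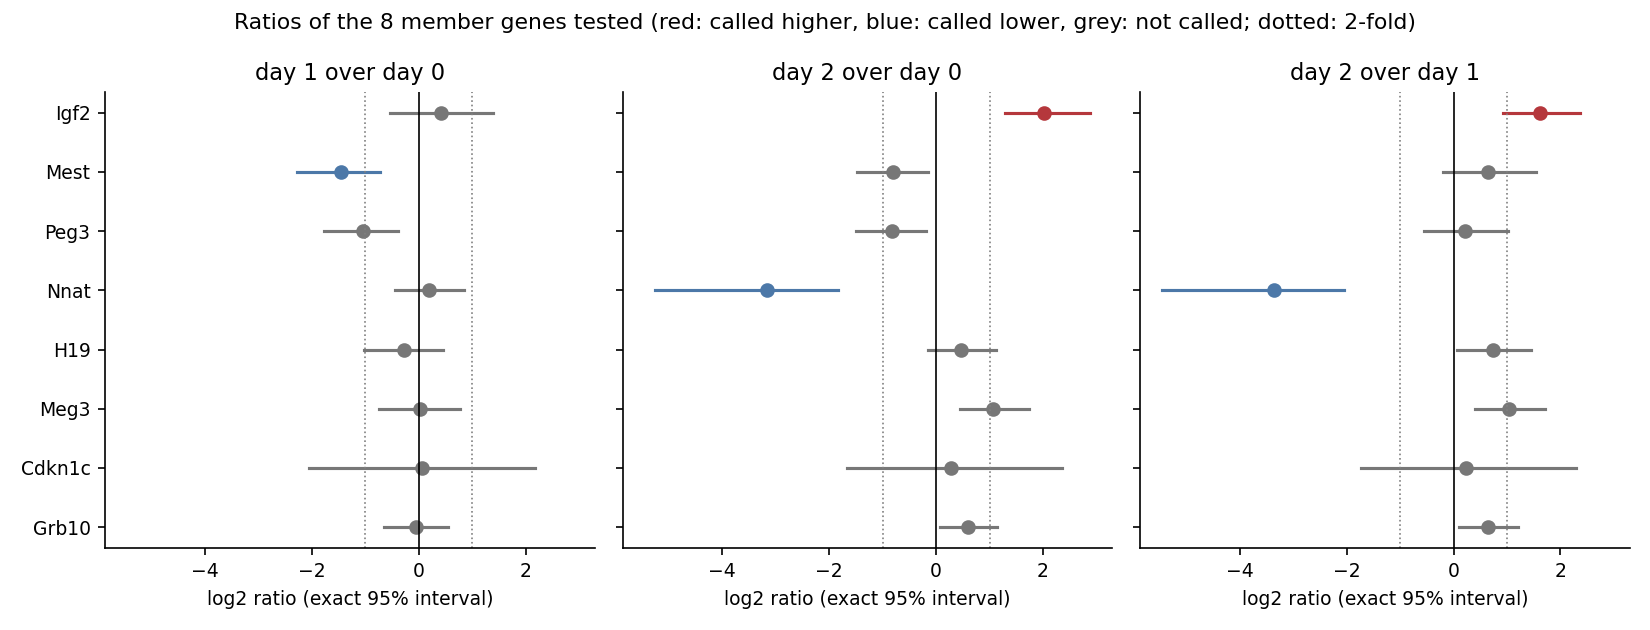
Log2 ratio (horizontal axis) of the 8 genes tested, in the 3 comparisons, each point with its exact 95% interval. Igf2 lies to the right and Nnat to the left of the dotted 2-fold lines in both comparisons that use day 2, Mest is called at day 1, and Cdkn1c has the widest interval.

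**Figure D3:**
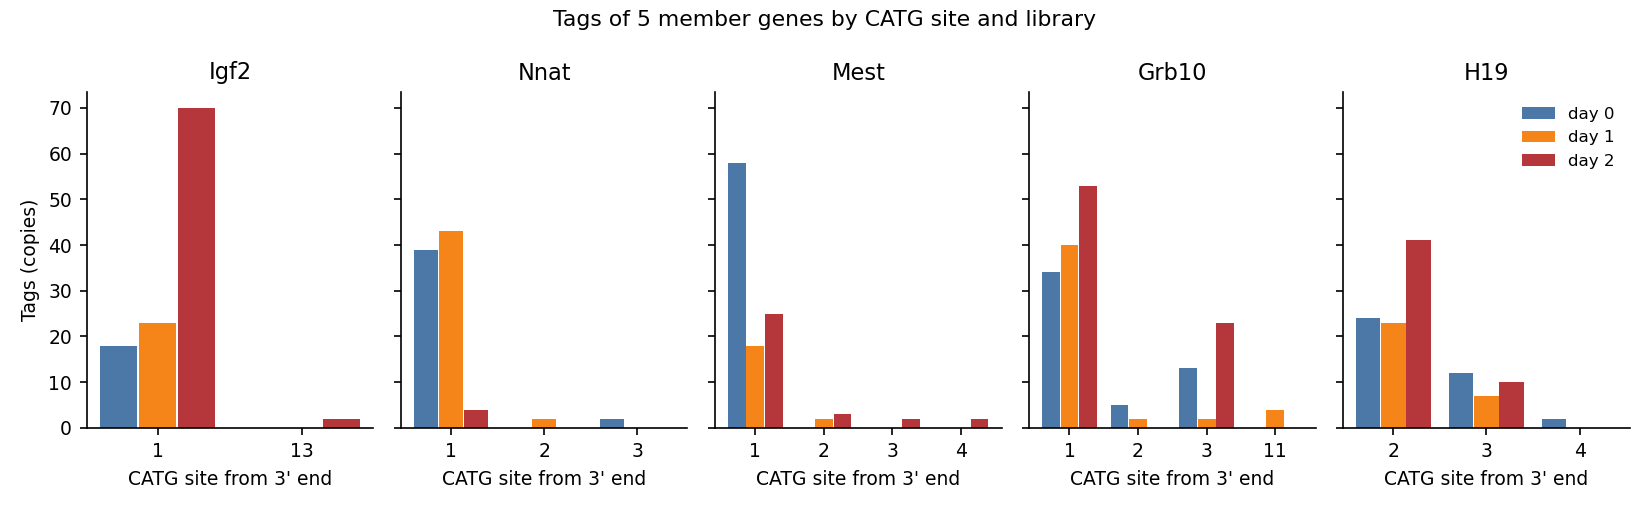
Tags (vertical axis, copies) of 5 genes at each CATG site, numbered from the 3' end (horizontal axis), in the 3 libraries. The 3'-most site holds nearly all tags of Igf2, Nnat and Mest, and site 3 of Grb10 drops to 2 tags at day 1.

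Split by parental copy, the 4 maternally expressed members summed to 45.1 CPM at day 0, 42.4 at day 1 and 72.7 at day 2. All 4 had positive ratios at day 2 over day 0, of which none was called, and that of H19 was negative (-0.42) when its most abundant site was left out. The 6 paternally expressed members summed to 64.0, 45.0 and 52.2 CPM, with Igf2 called higher and Nnat called lower among the 4 tested. The split therefore mixes opposite directions on the paternal side.

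Among 43 further imprinted genes 30 were listed and 15 tested. At day 2 over day 0, 1 of 15 rose and 0 fell, near the 6.49% of all clusters called, with a median of -0.00. The 1 was Slc38a4, an amino acid transporter, with 38, 58 and 78 tags and a log2 ratio of 1.07 (0.51 to 1.68). Igf2r, the receptor that clears Igf2 and does not signal its growth effect, had 60, 62 and 58 tags. Plagl1, a zinc finger factor that is known to activate several imprinted genes, had 49, 45 and 55. At day 1 over day 0 none of 15 was called by the exact test with its 2-fold minimum, and at day 2 over day 1 none either. H13, a signal peptide peptidase, had 466, 615 and 432 tags. It passed the p required but not the fold at day 1 over day 0 (0.46; exact test, adjusted p = 2.5e-06). The same held at day 2 over day 1 (-0.53; exact test, adjusted p = 1.2e-07). Ube3a, a ubiquitin ligase, had 77, 79 and 112 tags. Gnas, the stimulatory G protein alpha subunit, had 51, 68 and 61, and Zrsr1, a splicing factor relative, had 49, 61 and 52.

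Of 29 genes beside the members in the same imprinted domains 23 were listed and 15 tested. The exact test called 0 of 15 at day 2 over day 0 and 1 of 15 at day 1 over day 0, numbers too small to set apart from the 6.49% and 2.87% of all clusters. The 1 that rose was Cd81, a tetraspanin of the domain of Cdkn1c, with 44, 94 and 81 tags and a log2 ratio of 1.15 (0.63 to 1.71). Copg2, beside Mest, had 189, 162 and 127 tags, and Cobl, beside Grb10, had 77, 54 and 45. Tssc4, near Cd81, had 81, 71 and 93. At the Dlk1 and Meg3 domain, Dio3, which inactivates thyroid hormone, had 36, 33 and 13 tags, a log2 ratio of -1.39 (-2.46 to -0.47) at day 2 over day 0 that was not called. Mirg, a noncoding RNA further along from Meg3, had 9 tags at day 2 and was not listed before. Rian, of the same domain, went the other way, with 5 tags at day 0, no listing at day 1 and 2 at day 2. Rtl1, also of that domain, had 2 tags at day 1 alone. Mirg, Rian and Rtl1 were below the minimum for a test. Dio3, Mirg, Rian and Rtl1 were chosen after their values were seen.

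Among genes of the Igf2 signal, 15 of 20 were tested, and at day 2 over day 0 1 rose and 1 fell, with a median of 0.02. Of all clusters 6.49% were called in that comparison, and the list is too small to set apart from that share. Igfbp7, a binding protein of low affinity for insulin-like growth factors, rose from 2533 tags to 5620 (1.20, 1.13 to 1.27), with 4380 at day 1. Grb7, an adaptor of the family of Grb10, fell from 151 tags to 49 (-1.57, -2.07 to -1.10), with 56 at day 1. It was the 1 gene of 15 called at day 1 over day 0 (-1.36), against 2.87% of all clusters. Igf1, the paralogous ligand, had 115, 95 and 176 tags, a log2 ratio of 0.66 (0.31 to 1.01) under the 2-fold minimum. The receptors Igf1r (48, 41 and 41 tags) and Insr (55, 54 and 68) were not called. Igfbp5 had 389, 251 and 460 tags and was not called in any of the 3 comparisons. The kinases Akt2 (513, 672 and 504 tags) and Mtor (93, 66 and 54) were not called either.

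The groups around the other members were small, and their counts of calls are near the 6.49% of all clusters called at day 2 over day 0. Of 4 tested cyclin-dependent kinase inhibitors besides Cdkn1c none was called in any comparison. Cdkn1a had 97, 91 and 91 tags and Cdkn2b had 76, 76 and 77, while Cdkn2c had 234, 153 and 122, a log2 ratio of -0.89 (-1.22 to -0.57) at day 2 over day 0. Of 11 Notch pathway genes around Dlk1 none was called either. Notch1 had 934, 636 and 1042 tags, and Rbpj, the DNA-binding factor of the pathway, had 179, 190 and 256. The target gene Heyl had 109, 161 and 114 tags, Hes1 had 283, 283 and 207, and the ligands Jag1 and Jag2 had 131, 94 and 109 and 156, 174 and 172. Of 6 tested partners of Ndn and Peg3 in the MAGE family and in p53 signalling, 1 fell at day 2 over day 0: Traf2, a signalling adaptor that binds Peg3, with 126, 67 and 52 tags (-1.22, -1.72 to -0.75). Siah1a, a ubiquitin ligase, had 124, 91 and 62 tags (-0.95, not called), and Maged1 had 810, 710 and 795. Bax, which promotes cell death, had 113, 94 and 82 tags, and Maged2 had 80, 65 and 84.

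**Figure D4:**
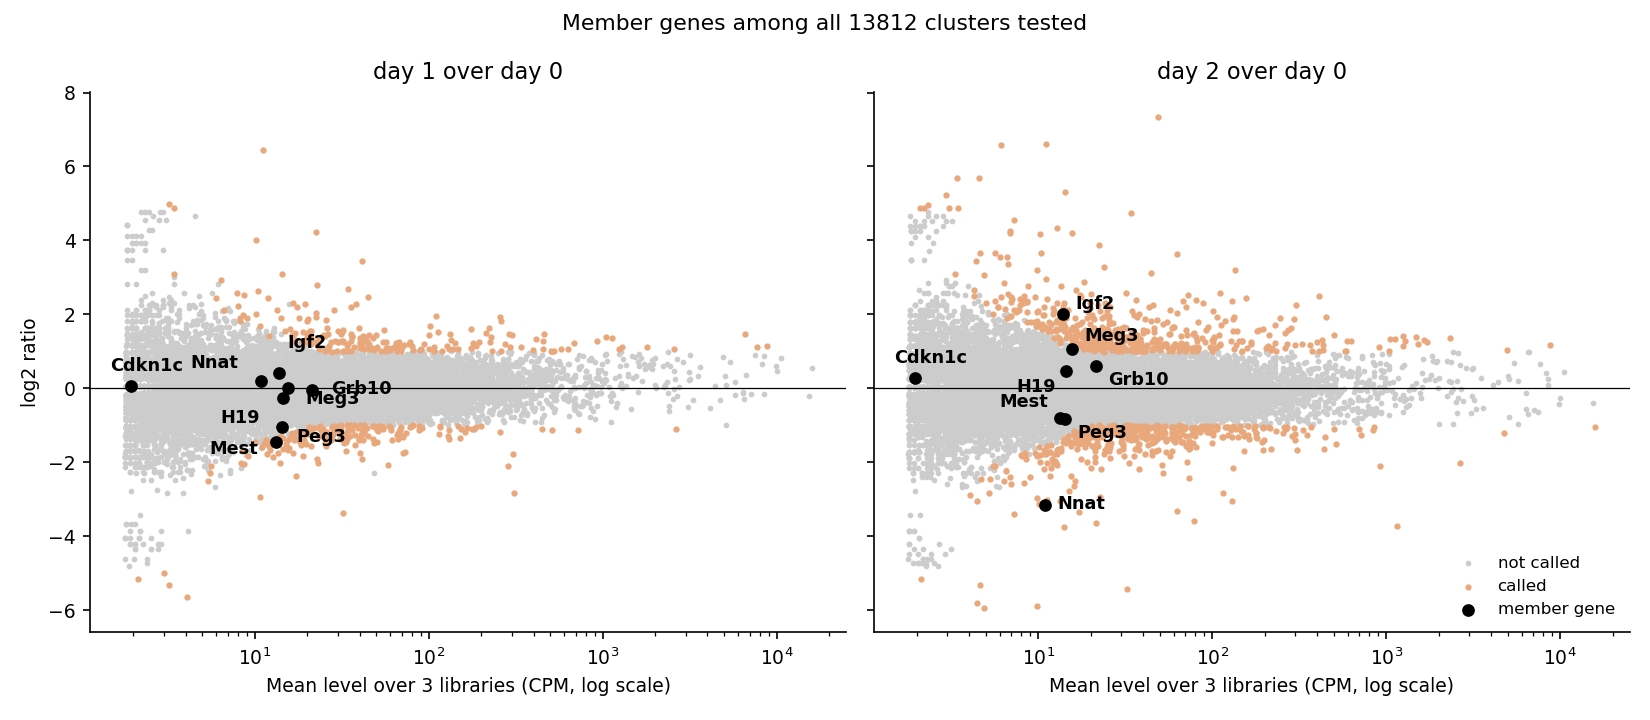
Log2 ratio (vertical axis) against the mean level over the 3 libraries (horizontal axis, CPM on a log scale) for all clusters tested, at day 1 and at day 2 over day 0, with called clusters in orange and the 8 member genes in black. Igf2 at 2.02 and Nnat at -3.16 lie among the called clusters at day 2, while Meg3 at 1.06 lies at their edge.

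Markers of several cell types moved between the same libraries, and their part in the results was not tested. For the counts of calls below, 3.43% of all clusters were called higher and 3.06% lower at day 2 over day 0. At day 2 over day 1 these shares were 1.82% and 1.1%. Skeletal muscle fibre genes, which whole skin holds through its muscle sheet, summed to 10010.9 CPM at day 0, 15530.9 at day 1 and 20985.0 at day 2, with 6 of 10 called higher at day 2 over day 0. Genes of regenerating muscle and satellite cells summed to 386.7, 602.0 and 1136.1 CPM, and 5 of 6 tested rose at day 2. Des, the muscle filament desmin, supplied 377.50, 595.28 and 913.14 CPM of these sums, and without it they were 9.2, 6.7 and 223.0 CPM. Among these the muscle regulator Myod1 had 9, 11 and 71 tags and Myog had 2, no listing and 57. The satellite cell markers Pax7 and Myf5 were not listed in any library. As 45.3%, 47.1% and 46.5% of the tags kept were assigned to clusters, a marker not listed does not show that its cells were absent. Macrophage genes summed to 257.7, 274.8 and 583.3 CPM (4 of 7 tested rose at day 2; Cd68 and C1qa were not listed).

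Inner root sheath genes, which surround the growing hair shaft, summed to 43255.1, 63376.4 and 25230.4 CPM, highest at day 1 and lowest at day 2. All 10 were listed in each library. At day 2 over day 0, 2 of 10 fell (3.06% of all clusters), and at day 2 over day 1, 8 of 10 fell (1.1%). Hair matrix and shaft genes summed to 4886.9, 5952.8 and 4050.4 CPM, with 3 of 8 tested called lower at day 2 over day 0 and Krt85 not listed. The median ratio of this list at day 1 over day 0 was -0.05 on the log2 scale although its sum was higher. Over the same days Nnat stood at 14.57, 16.73 and 1.47 CPM, and a link between Nnat and these lists was not tested. Dermal fibroblast genes summed to 3633.5, 2499.7 and 4093.3 CPM, lowest at day 1, as were the dermal papilla and endothelium sums below. Of 9 fibroblast genes tested, 0 were called at day 1 over day 0 and 3 were called higher at day 2 over day 0 (3.43% of all clusters). Adipocyte genes summed to 5237.4, 3869.1 and 3443.6 CPM, with 1 of 9 tested called higher at day 2 over day 0 and Pparg not listed at days 0 and 1. Markers of epidermis (12987.5, 17435.3 and 16291.8 CPM), dermal papilla (71.4, 59.1 and 66.9, with Sox2 not listed), endothelium (150.0, 137.6 and 187.7, with 2 of 8 tested called higher and 1 lower at day 2 over day 0) and Schwann cells and nerve (220.4, 279.2 and 324.3) stayed within 1.5 times across the libraries.

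**Figure D5:**
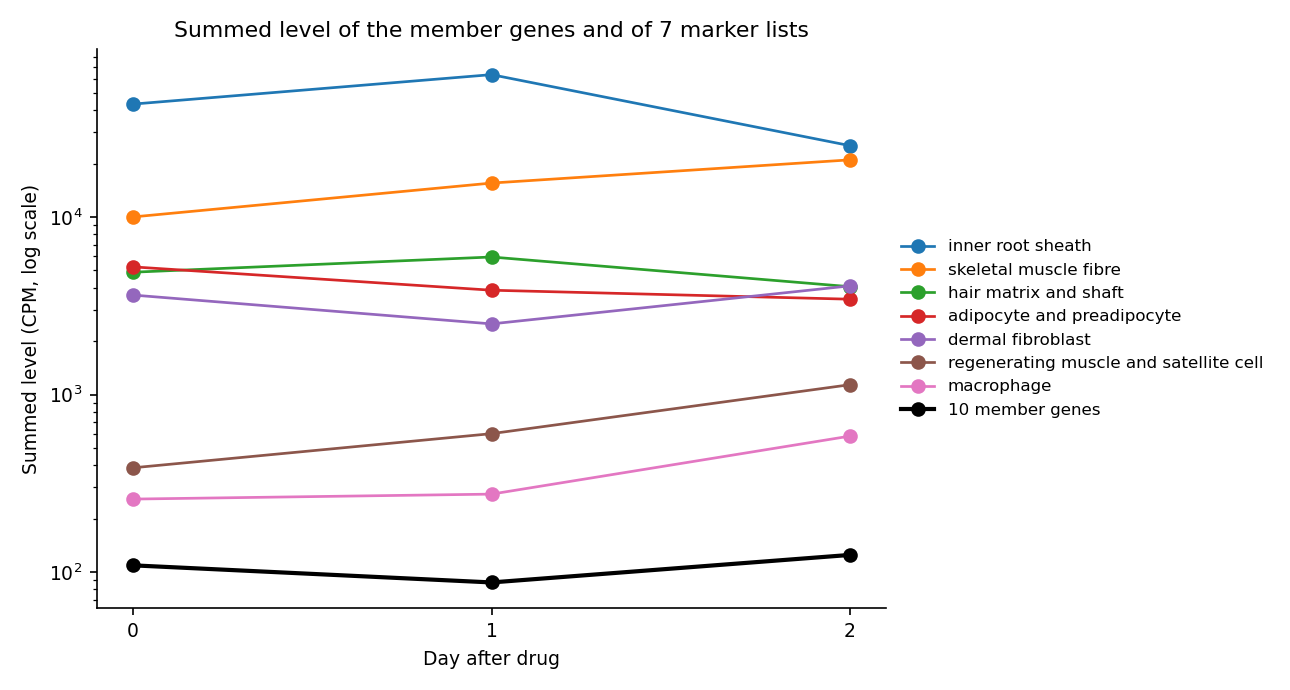
Summed level (vertical axis, CPM on a log scale) of the 10 member genes and of 7 marker lists at days 0, 1 and 2 (horizontal axis), 1 library per point. Muscle lists and macrophages are highest at day 2, and the inner root sheath is highest at day 1 and lowest at day 2.

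The genes most alike to each called member were taken as those with the smallest distance in the pair of log2 ratios to day 0, among 5715 named genes at a mean of 20 CPM or more. The pair rests on 3 libraries and one common day 0. Nearest to Nnat were Kcnk16, a potassium channel (167.07, 156.91 and 23.51 CPM, distance 0.44), Hba-a1, an alpha globin of red blood cells (1756.69, 1559.41 and 132.60 CPM, distance 0.68; uncertain, as it has the near-identical copy Hba-a2), and Tubb3, a beta tubulin of neurons (0.97). Nearest to Igf2 were Ms4a7, a membrane protein of macrophages (18.13, 23.42 and 69.79 CPM, distance 0.09), Trdn, triadin of the muscle calcium store (0.13), and Pirb, a receptor of myeloid cells (0.13). Nearest to Mest were Atrx, a chromatin remodeller (71.80, 27.89 and 44.08 CPM, distance 0.13), Txnl4b (0.17) and Nsa2, a factor of ribosome assembly (0.21).

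Promoter sequence was also compared, although it need not be independent of the choice of imprinted genes, since imprinting is set by DNA methylation. RefSeq promoters (GRCm38.p6, 250 bases before to 50 after the start) were found for 8 of 10 members, and not for H19 and Cdkn1c. A promoter with a CpG observed-to-expected ratio above 0.6 and a GC content above 50% was present in 6 of 8 genes (75.0%). Of 27025 genes, listed in skin or not, 35.8% had one. Counted per promoter, since a gene with several has more chances to pass, it was 6 of 15, against 10935 of 32851 (33.3%). The highest ratios were those of Grb10 (0.97) and Igf2 (0.90), and Dlk1 (0.43) and Peg3 (0.46) were below the limit. Meg3 (0.60 after rounding), Mest (0.61) and Ndn (0.62, with a GC content of 51.0%) passed close to it. Nnat, which fell, had a ratio of 0.69. Of the 4 promoters of Igf2 1 passed, and the others reached down to 0.10.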

How the data were processed

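Polyadenylated RNA was cut at CATG by NlaIII and tags were released by MmeI, amplified by PCR and sequenced, per the labels' protocols. The authors deposited, for each UniGene cluster, a raw count of tags, the copy number of each tag with its CATG site, and TPM values (the same counts per 1000000 of all tags kept). No source used here names the authors' aligner or builds. Counts, not TPM, were analysed. Tags were matched exactly to GENCODE M21 transcripts (GRCm38). A cluster took the gene holding at least 80% of its matched and 50% of all tags. This named 15163 of 20595 clusters by tags of 1 gene and 684 by shared tags, Igf2 among them. RefSeq accessions named 194, and 4554 stayed unnamed (4.9% of tags). A gene was represented by its cluster with the most tags.

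TMM factors (edgeR 4.0.16) were 1.03, 0.94 and 1.03. Library totals are in the text. Clusters with 15 or more tags summed were tested with the exact binomial test (scipy 1.17.1, doubled smaller tail). With 1 library a group, edgeR's quasi-likelihood test cannot be fitted. Log2 ratios carry a pseudocount of 0.5 tags, and intervals cover counting error only, as PCR copies are not told apart. The test was also run on simulated data with counting error alone, which cannot speak for variation between animals or for PCR copies. Alternatives were other scalings (DESeq2 1.42.0 among them), filters, sets of tags, sums over clusters, a pseudocount of 2, assumed variation between animals and a rule without a test.

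All members were named. From each other gene list (not the marker lists) the text takes the genes called and, in each comparison, up to 4 with the largest ratios at 20 CPM or more. Igf2r, Igf1r, Insr, Maged1, Blcap, Dio3, Mirg, Rian and Rtl1 are outside this rule and were added after their values were seen. For each called member it names the 3 genes most alike. The members and the lists were chosen with earlier results of these data known.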

Additional observations from a re-analysis of the deposited data

Results flagged for a closer look

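The change from day 0 differed between the 2 days after the drug for 2 members, by the exact test of day 2 against day 1. Nnat was near its day 0 level at day 1 and far below it at day 2, a difference of -3.36 on the log2 scale (45 against 4 tags). Igf2 was near its day 0 level at day 1 and above it at day 2, a difference of 1.61 (23 against 72 tags). Each value rests on 1 library per day.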

How the results depend on the processing

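The calls of Nnat (day 2 over day 0 and over day 1) and of Mest (day 1 over day 0) held in all 9 alternatives of scaling, filter, tags, clusters and pseudocount that gave each a value, and those of Igf2 (at day 2) in all 8. Not all of these alternatives could change a call. The pseudocount enters neither the test nor the ratio that decides a call. No member lay in a named cluster more than once, so summing clusters left its tags as they were. The 3'-most site held 95.6% of the tags of Nnat, 98.2% of those of Igf2 and 91.8% of those of Mest. Assumed variation (judged at an adjusted p of 0.05, not 0.001) and the rule without a test, below, did not keep all the calls. Of 210 member ratios under an alternative, those settings included, 203 kept direction and side of the threshold. The other 7 changed sign without a call: Meg3 at day 1 over day 0, -0.05 by all kept tags and -0.11 by assigned tags; Cdkn1c there, -0.01 and -0.06; Grb10 there, 0.01 by tags of 1 gene and 0.30 at the 3'-most site; and H19 at day 2 over day 0, -0.42 without its most abundant site. Scaling by assigned tags moved the median of all clusters by -0.13 at day 1 over day 0 and by 0.13 at day 2 over day 1. It called 129 higher and 344 lower in the former (204 and 192 with TMM) and 373 and 100 in the latter (251 and 152). Scaling by all kept tags gave 156 and 267, and 352 and 106.

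Counts of calls for day 1 over day 0, day 2 over day 0 and day 2 over day 1 were 396, 896 and 403 for all clusters and 1, 2 and 2 for members. Without the most abundant site of each cluster they were 54, 130 and 78, and 0, 0 and 0 for members, since the called members then had too few tags to test. When animals were taken to vary with a coefficient of 0.2 (edgeR's exact test, adjusted p of 0.05) they were 29, 241 and 90, with 0 members, 2 (Igf2 and Nnat) and 1 (Nnat). At 0.4 they were 0, 6 and 2, with 0 members in each. At 2-fold and 20 CPM without a test, members were 2 at day 1 (Mest and Peg3), while at day 2 they were Igf2 and Meg3, without Nnat. Tags of 1 gene gave 1 member at day 2 over day 0 and 1 at day 2 over day 1, because Igf2 shares its tags. The causes of other shifts were not tested.

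No paired analysis was possible because each group holds 1 library. Low counts limit Cdkn1c, Dlk1 and Ndn most, at 16, 8 and 4 tags in all. None of these tags came from the 3'-most CATG site: they came from sites 3, 10 and 6. Whether expression, depth or the assignment of tags kept the counts low was not tested.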

Other observations

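A few tags were assigned by the authors to member clusters although they match no reference transcript exactly. In the Nnat cluster, 2 copies at day 1 differ from the main tag by T21G (positions counted from 1 at the first base of CATG, the reference base first). In the Grb10 cluster, 2 copies at day 0 differ from the tag of site 3 by T11G.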
